A study of Mus musculus with 22 samples.

Results

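The common myeloid progenitor (CMP) and the megakaryocyte-erythroid progenitor (MEP) were compared within each mouse, and the change from CMP to MEP in mice without Arid1a was set against the same change in control mice. The comparison used 12 of the 22 libraries of the series, which were the CMP and MEP libraries of 6 mice. Of these, 3 were Arid1a f/f;Mx1-Cre+ mice, labelled ARID1A-/- and called KO here (mice 301, 304 and 308), and 3 were littermate Arid1a f/f;Mx1-Cre- mice of matched sex, labelled wild type and called WT (mice 300, 305 and 309). All 6 carried the floxed exon 9 of Arid1a on a C57BL/6 background reached by 5 backcross generations. All 6 were also given poly(I:C), as 5 doses of 300 µg every other day when 8 to 14 weeks old, and their bone marrow was sorted 4 weeks later. Mx1-Cre answers to interferon and is not confined to blood cells, so the marrow surroundings of a KO progenitor could have lost Arid1a as well.

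CMPs give rise to MEPs and to granulocyte-monocyte progenitors (GMPs), and MEPs give rise to red cells and platelets. On the way to the MEP, cells take up the erythroid programme driven by GATA1, KLF1 and TAL1, which brings in the erythropoietin receptor, heme synthesis and the proteins of the red cell membrane, and shut down genes of the granulocyte, monocyte and lymphoid branches. ARID1A is a DNA-binding subunit of the BAF (SWI/SNF) complex, which moves nucleosomes at promoters and enhancers.

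A step is used here for the log2 change from CMP to MEP, so that a positive step is a gain in the MEP and a negative step is a loss. A gene's step was called normal where it passed a false discovery rate (FDR) of 0.1 with over 0.5 on the log2 scale in WT mice, and altered where the KO step minus the WT step passed the same limits, in both cases for genes above 1 TPM (a transcript's share of the library, scaled for length) in at least 1 of the 4 groups. A normal gain or loss was blunted where the difference went against it, increased where the difference went with it, and reversed where the KO step was itself called in the other direction. An altered gene without a normal step was an acquired gain or loss where the KO step was called. Levels of single libraries are given as CPM (counts scaled for library size) scaled by TMM (trimmed mean of M values), and steps of single mice as differences of log2 CPM, in the order 300, 305, 309 for WT mice and 301, 304, 308 for KO mice.

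Each of the 12 libraries held between 41497753 and 60789922 counts on genes, with 17859 genes tested and 14033 of them above 1 TPM. Arid1a itself was read at 422, 399 and 417 CPM in WT CMP and 377, 342 and 346 CPM in KO CMP, and at 328, 308 and 319.7 CPM in WT MEP and 301, 275 and 288 CPM in KO MEP. The summed transcripts of the gene cover far more than the deleted exon, so these levels do not check the deletion. CMPs had been sorted as Lin-Kit+Sca1-CD34+FcγRII/III lo cells and MEPs as Lin-Kit+Sca1-CD34-FcγRII/III- cells, so the genes of these markers check the gates and are no finding. None of the 5 sort marker genes passed the test of the difference, which was 0.42 for Cd34, 0.04 for Kit, -0.53 for Ly6a (Sca1), 0.32 for Fcgr2b and -0.97 for Fcgr3, with adjusted p of 0.776, 0.816, 0.634, 0.584 and 0.263. Cd34, the antigen that CMPs carry and MEPs lack, stood at 707, 672 and 708 CPM in WT CMP, 563, 576 and 681 CPM in KO CMP, 20.7, 1.50 and 6.97 CPM in WT MEP and 6.20, 10.8 and 11.4 CPM in KO MEP. The MEP library of WT mouse 300 therefore held the most Cd34 of the 6 MEP libraries, and it also held the most Mpo, at 43.7, 15.7 and 33.7 CPM in WT MEP against 15.6, 18.9 and 24.4 CPM in KO MEP. Its summed level of 20 late neutrophil granule genes was 57.7 CPM, against 15.9 and 18.02 CPM in the other WT MEP libraries and 7.58 to 17.0 CPM in KO MEP. Results that rest on this mouse are given without it as well. The study described less CD34 on the surface of KO progenitors, and whether the CMP and MEP gates held the same cells in both genotypes was not tested. In sorted bulk samples, fewer cells of a type and less RNA per cell cannot be told apart.

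Most of the normal step was kept without Arid1a. Among genes above 1 TPM, 3503 were gained (25.0%) and 4285 were lost (30.5%) in WT MEP, and 3370 (24.0%) and 4260 (30.4%) were gained and lost in KO MEP. Of the WT gains, 2888 (82.4%) were called gains in KO mice too, 593 were not called and 22 were called losses. Of the WT losses, 3758 (87.7%) were called losses in KO mice, 515 were not called and 12 were called gains. Across the 14033 genes the KO step followed the WT step with Pearson's r of 0.904 and Spearman's rho of 0.921. This is a description across genes, which are not independent replicates. Steps of single mice correlated at 0.922 to 0.930 within a genotype and at 0.863 to 0.891 between genotypes.

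The difference between the steps was called for 1405 of the 14033 genes (edgeR quasi-likelihood test with Benjamini-Hochberg adjustment, FDR under 0.1 and over 0.5). In simulated counts put through the same fit, the share of false calls was above the nominal rate and most changes of 0.5 were missed. The calls may therefore include more false ones than the FDR states. The simulation changed 200 of 17563 genes, held no mouse effect and counted calls without the limit of 0.5. Its share of false calls is thus not an estimate for the 1405. The KO step was the lower for 853 of them (6.08%) and the higher for 552 (3.93%). Without WT mouse 300, 1391 genes were called and 51.7% of them were lower, against 60.7% with all mice. The 3 KO steps lay wholly above or below the 3 WT steps in 1380 of the 1405, while over all tested genes 13.2% had KO steps all above and 16.2% all below the WT steps. The 1405 were called from these same steps, which favours such gaps, so the 1380 are no separate evidence. Gains and losses were altered unevenly. Of the 3503 WT gains, 339 (9.68%) were altered, 315 of them against the gain and 24 with it. Of the 4285 WT losses, 806 (18.8%) were altered, 438 against the loss and 368 with it. The median WT loss was -1.62 and the median WT gain 0.88, so the limit of 0.5 was set against steps of unlike size. The WT step and the difference share the WT libraries, which favours calls against the WT step. When gains and losses were instead called from the mean of the WT and KO steps, 251 gains were blunted and 60 increased, and 379 losses were blunted and 465 increased. Altered gains were mostly blunted in that count too, while losses went from more often blunted to more often increased.

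**Figure D1:**
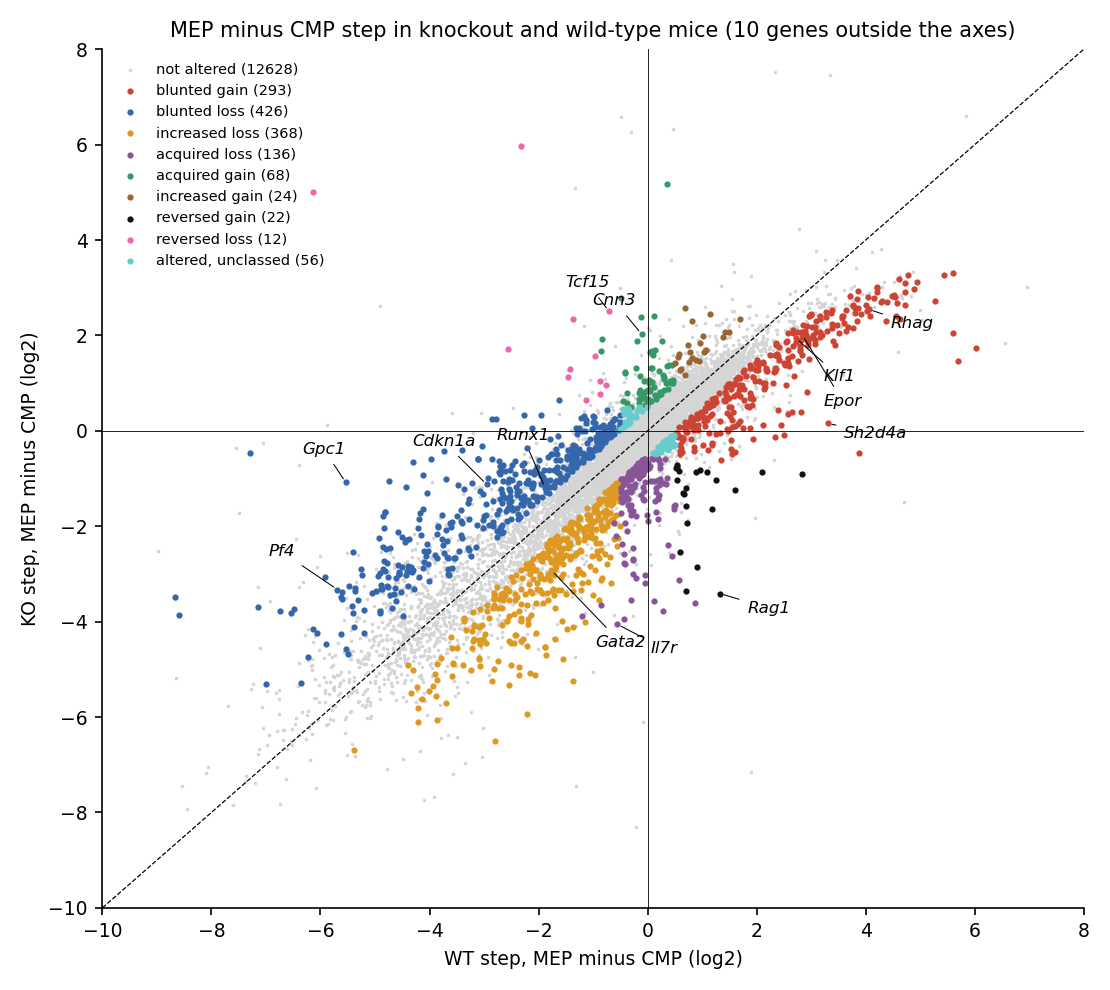
Fitted KO step against fitted WT step (MEP minus CMP, log2) for the genes above 1 TPM, with 10 outside the axes, each point a gene, coloured by class with the number of genes in each class. The dashed line marks equal steps. Red blunted gains such as Klf1 (2.72 in WT, 1.94 in KO) lie below it on the right, and blue blunted losses such as Pf4 (-5.69 in WT, -3.33 in KO) lie above it on the left.

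The classes from the WT step were 293 blunted gains, 24 increased gains, 22 reversed gains, 426 blunted losses, 368 increased losses, 12 reversed losses, 68 acquired gains and 136 acquired losses, with 56 altered genes in no class. A blunted gain had a median step of 2.12 in WT and 1.13 in KO mice, and a blunted loss a median of -2.43 in WT and -1.13 in KO mice. Blunting was mostly partial: the KO step was not called at all for 97 of the 293 blunted gains and 114 of the 426 blunted losses. Increased losses went from a median of -1.66 to -2.78.

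Blunted gains included much of the red cell programme, in which most genes were higher in KO CMP. Klf1, the transcription factor that activates most red cell genes, lies at chr8:84901928-84905291 (GRCm38). It was measured at 58.1, 70.6 and 54.4 CPM in WT CMP and 416, 432 and 356 CPM in WT MEP, and at 141, 154 and 114 CPM in KO CMP and 507, 539 and 511 CPM in KO MEP. Every KO CMP library was above every WT CMP library, and every KO MEP library was above every WT MEP library, by less. The steps were 2.84, 2.61 and 2.71 in WT mice and 1.85, 1.81 and 2.17 in KO mice, which do not overlap, and differed by -0.78 ± 0.10 (SE; adjusted p = 0.00252). Epor, the erythropoietin receptor, rose from 35.4, 38.0 and 31.8 CPM to 252, 255 and 242 CPM in WT mice and from 89.3, 93.6 and 69.0 CPM to 335, 337 and 338 CPM in KO mice. Its steps of 2.83, 2.75 and 2.93 in WT mice were all above the 1.91, 1.85 and 2.29 of KO mice, a difference of -0.82 ± 0.12 (SE; adjusted p = 0.00331). Rhag, the Rh-associated glycoprotein of the red cell membrane, rose from 13.6, 15.0 and 11.1 CPM to 201, 256 and 205 CPM in WT mice and from 63.6, 77.1 and 41.0 CPM to 334, 365 and 332 CPM in KO mice. Its steps of 3.88, 4.09 and 4.20 in WT mice were all above the 2.39, 2.24 and 3.01 of KO mice, with a difference of -1.51 ± 0.19 (SE; adjusted p = 0.00177).

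These 3 blunted gains and Pf4, a blunted loss described below, carry a GATA motif near the start site in the RefSeq annotation of GRCm38.p6, and their promoter windows are shown because these genes stand for the gains and losses that were blunted. Each window runs 5′ to 3′ on the gene's strand from 250 bases before to 50 bases after the start, with matches to AGATAA or TGATAA on either strand in capitals. The windows of Klf1 (chr8:84901732-84902031, plus strand), Epor (chr9:21963527-21963826, minus strand), Rhag (chr17:40810899-40811198, plus strand) and Pf4 (chr5:90772185-90772484, plus strand) each held 1 match.
Klf1: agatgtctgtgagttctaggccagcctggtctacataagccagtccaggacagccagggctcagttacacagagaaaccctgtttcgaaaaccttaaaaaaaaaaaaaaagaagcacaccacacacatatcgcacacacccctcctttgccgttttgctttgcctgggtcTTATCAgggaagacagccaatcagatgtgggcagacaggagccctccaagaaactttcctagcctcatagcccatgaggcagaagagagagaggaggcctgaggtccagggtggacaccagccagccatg
Epor: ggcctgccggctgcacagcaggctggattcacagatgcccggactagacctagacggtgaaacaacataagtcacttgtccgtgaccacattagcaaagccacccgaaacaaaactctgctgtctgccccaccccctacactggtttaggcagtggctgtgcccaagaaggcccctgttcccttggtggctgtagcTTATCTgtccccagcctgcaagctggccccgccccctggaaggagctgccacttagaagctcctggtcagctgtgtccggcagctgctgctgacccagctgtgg
Rhag: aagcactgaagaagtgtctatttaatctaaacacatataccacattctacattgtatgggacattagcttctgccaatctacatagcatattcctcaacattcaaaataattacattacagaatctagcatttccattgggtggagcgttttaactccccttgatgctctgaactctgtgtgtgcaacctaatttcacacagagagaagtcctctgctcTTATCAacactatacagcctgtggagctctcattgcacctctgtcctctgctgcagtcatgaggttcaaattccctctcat
Pf4: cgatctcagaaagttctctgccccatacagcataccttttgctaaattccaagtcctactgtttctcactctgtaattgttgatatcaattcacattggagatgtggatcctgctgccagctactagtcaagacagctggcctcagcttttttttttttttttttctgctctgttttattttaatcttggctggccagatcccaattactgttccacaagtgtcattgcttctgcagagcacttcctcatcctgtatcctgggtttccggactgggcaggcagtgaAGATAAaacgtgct
The match began 80 bases before the start of Klf1, 54 before that of Epor and 31 before that of Rhag, and in Pf4 it began 36 bases after the start. Of all 32851 promoter windows of this length, 18.6% held such a match. These 4 windows were picked for their genes, and a match of letters is not a site of binding. No share of motifs is given for the classes, because only 71.3% of the blunted gains and 75.6% of the blunted losses had a window under their symbol.

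Among 20 erythroid transcription factors and cofactors, the difference passed an FDR of 0.1 as lower for 11 and as higher for 4, with a median difference of -0.25. Over all 17859 genes 7.91% were lower and 5.86% higher by this rule, which has no limit of size, with a median of -0.01. Most of the 11 differences were small. The 4 higher differences reached 0.66 and are given here only as a count. Klf3, a repressor that KLF1 switches on, had steps of 1.69, 1.91 and 1.76 in WT and 1.28, 1.38 and 1.27 in KO mice and a difference of -0.48 ± 0.07 (adjusted p = 0.00525). Gata1, the central factor of both MEP fates, had steps of 1.71, 1.61 and 1.83 in WT and 1.36, 1.11 and 1.57 in KO mice and a difference of -0.38 ± 0.11 (adjusted p = 0.0799). The difference was -0.47 ± 0.11 (adjusted p = 0.0269) for the repressor Gfi1b and -0.19 ± 0.06 (adjusted p = 0.0846) for Tal1, a helix-loop-helix factor of the same complex as GATA1. Myb, a factor of immature progenitors, was lost by -0.25 in WT and -0.66 in KO mice, a difference of -0.41 ± 0.10 (adjusted p = 0.0304). Zfpm1, the GATA1 partner FOG1, stepped 0.52 in WT and 0.53 in KO mice and did not pass the test (adjusted p = 0.948). The count of 11 fell to 6 without WT mouse 309, and the count of 4 to 2 without WT mouse 309 or any 1 of the KO mice. With 1 mouse left out, calls were lost with an adjusted p of up to 0.251 for Gata1 (without mouse 309), 0.113 for Gfi1b (without mouse 309), 0.271 for Tal1 (without mouse 301) and 0.132 for Myb (without mouse 309).

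Among 22 genes of erythropoietin signalling and iron uptake, 9 were lower and 3 higher, with a median difference of -0.23. By the same rule (FDR under 0.1) 7.91% of all genes were lower and 5.86% higher. The 3 higher fell to 1 without mouse 300, 301, 304 or 309. The transferrin receptor Tfrc gained 1.98 ± 0.05 in WT mice and 1.43 ± 0.05 in KO mice, a difference of -0.56 ± 0.07 (adjusted p = 0.00233). Its relative Tfr2 gained 1.53 ± 0.06 in WT mice and 0.89 ± 0.06 in KO mice, a difference of -0.64 ± 0.08 (adjusted p = 0.00165). Slc25a37, mitoferrin, which carries iron into mitochondria, went the other way, with steps of -0.22, 0.10 and -0.38 in WT and 0.31, 0.75 and 0.44 in KO mice (difference 0.67 ± 0.14, adjusted p = 0.0201). Only 2 of 15 genes of heme synthesis and breakdown passed, both lower, and this count reached 7 without KO mouse 308. They were Cpox, the coproporphyrinogen oxidase (difference -0.67 ± 0.14, adjusted p = 0.0209), and Blvrb, a biliverdin reductase (difference -0.81 ± 0.15, adjusted p = 0.0111). Alas2, the erythroid enzyme that starts the pathway, was higher in KO than in WT mice in both populations, at 0.692, 0.773 and 0.352 CPM against 4.53, 6.32 and 4.18 CPM in CMP and 1.11, 2.45 and 1.72 CPM against 11.2, 16.0 and 14.1 CPM in MEP. Its step was 1.48 in WT and 1.46 in KO mice and the difference did not pass (adjusted p = 0.984).

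Most red cell proteins gained less in KO mice. Of 32 globins, surface antigens, skeleton proteins and enzymes, 18 had a lower and 2 a higher step in KO mice, the median step was 2.32 in WT and 1.73 in KO mice, and the median difference was -0.94. The 2 higher ranged from 1, without KO mouse 301 or WT mouse 309, to 4 without KO mouse 304. In 19 of the 32 the KO steps were all below the WT steps. For all tested genes, 7.91% had a lower and 5.86% a higher difference (FDR under 0.1), and 16.2% had KO steps all below. Rhd, the other Rh protein, had steps of 3.84, 3.82 and 3.90 in WT and 2.44, 2.18 and 3.12 in KO mice (difference -1.28 ± 0.20, adjusted p = 0.00569). Epb42, protein 4.2 of the membrane skeleton, had steps of 3.72, 3.98 and 3.70 in WT and 2.24, 1.80 and 2.93 in KO mice (difference -1.54 ± 0.27, adjusted p = 0.00852). Ermap, an erythroblast surface protein, had steps of 3.22, 3.15 and 3.14 in WT and 1.87, 1.79 and 2.24 in KO mice (difference -1.20 ± 0.11, adjusted p = 0.000376). None of these 3 sets of steps overlapped.

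In both populations most red cell genes were higher in KO mice, with the larger median in CMP. In KO CMP, 27 of the 32 red cell genes were higher and none lower, with a median of 1.36, where 10.5% of all genes were higher and 10.9% lower in KO CMP. In KO MEP, 23 were higher and 1 lower, with a median of 0.62, where 13.2% of all genes were higher and 14.6% lower. The summed level of the list was 2592 to 2789 CPM in WT CMP and 4388 to 5270 CPM in KO CMP, and 14288 to 14387 CPM in WT MEP and 15265 to 16135 CPM in KO MEP. These values restate the same libraries and are no separate evidence. Car1, carbonic anhydrase 1, was another case: its levels overlapped in CMP, at 470.4, 483 and 475 CPM in WT and 496, 391 and 444 CPM in KO mice, and it was lower in every KO MEP library, at 1867, 1284 and 2026 CPM against 4116, 2843 and 4107 CPM. Its steps of 3.13, 2.56 and 3.11 in WT and 1.91, 1.72 and 2.19 in KO mice differed by -0.99 ± 0.17 (adjusted p = 0.00669). Car2, carbonic anhydrase 2, was read at 2472, 2867 and 2499 CPM in WT MEP and 2371, 2541 and 2416 CPM in KO MEP, and its blunting of -0.73 ± 0.10 (adjusted p = 0.00283) came with higher levels in KO CMP (599, 661 and 491 against 387, 390.2 and 344 CPM).

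The alpha globin genes are near-identical copies between which reads can be split, so their single values are uncertain. Hba-a2 had steps of 1.02, 1.83 and 1.72 in WT and -0.37, -0.07 and -0.14 in KO mice (difference -1.72 ± 0.19, adjusted p = 0.00112), and Hba-a1 had 1.56, 2.82 and 2.49 in WT and 0.94, 1.05 and 0.99 in KO mice (difference -1.30 ± 0.26, adjusted p = 0.0148). Hbb-bs was read at 10.4, 12.4 and 5.06 CPM in WT CMP and 65.0, 81.4 and 81.1 CPM in KO CMP, and at 9.27, 25.0 and 7.60 CPM in WT MEP and 76.7, 127 and 99.2 CPM in KO MEP, higher in every KO library, and its step did not pass the test (difference -0.10 ± 0.25, adjusted p = 0.872).

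**Figure D2:**
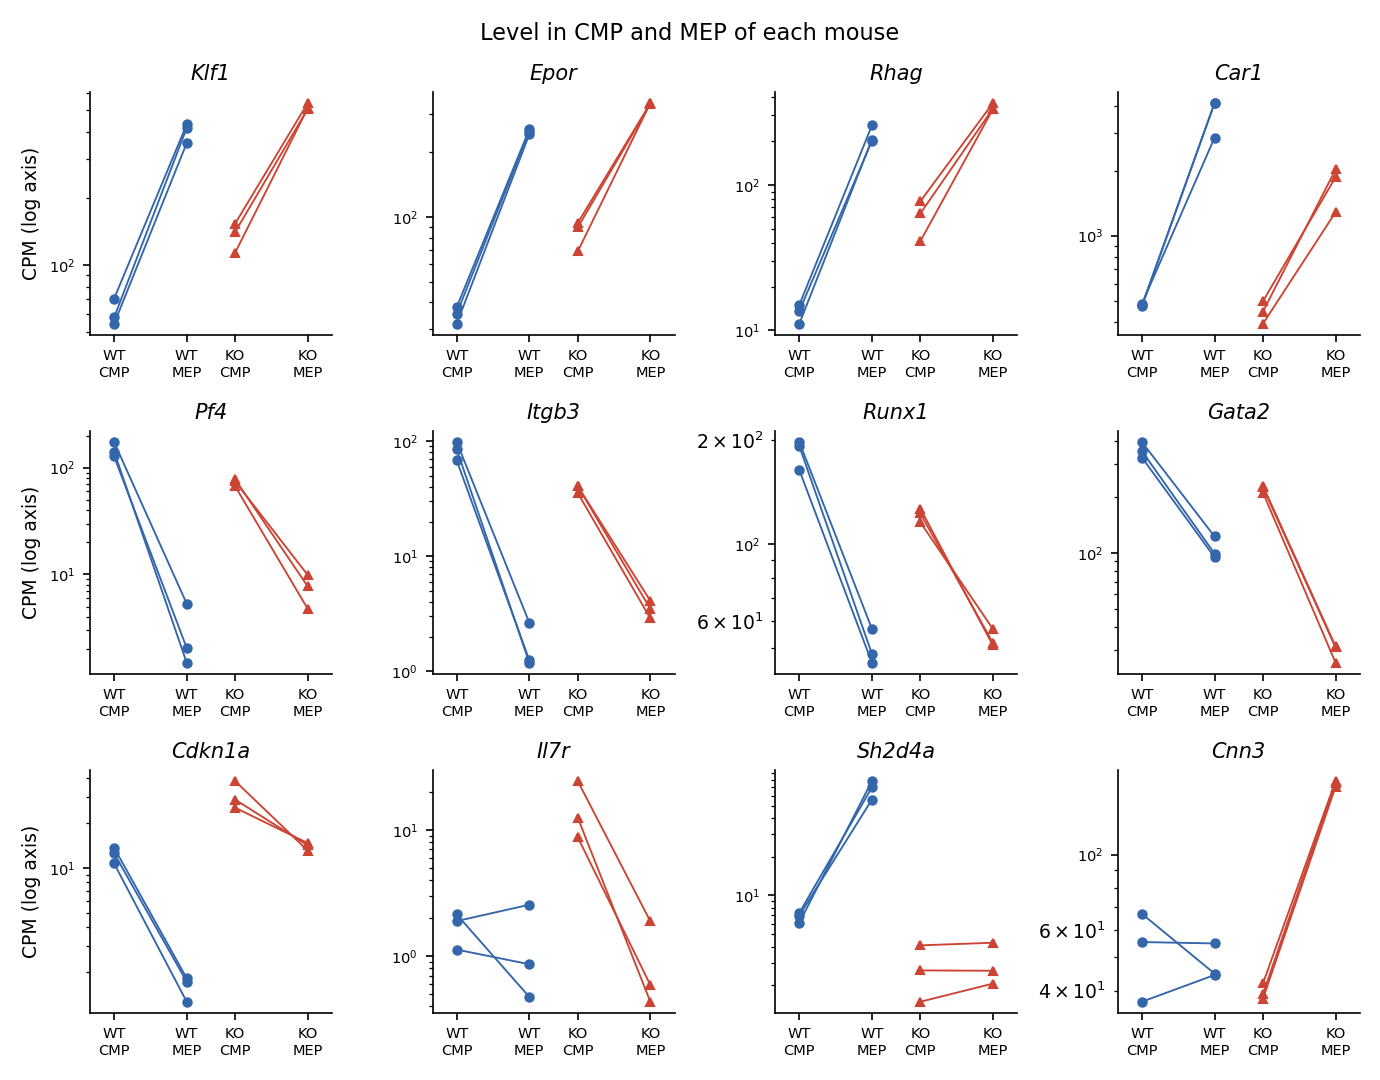
Level of 12 genes (CPM, log axis) in CMP and MEP, with a line joining the populations of each mouse, for 3 WT mice (blue circles) and 3 KO mice (red triangles). Klf1, Epor and Rhag start higher in every KO CMP library, Pf4 and Itgb3 start lower in every KO CMP library, Gata2 falls further in every KO mouse, and Cdkn1a stays at 13.1 CPM or more in every KO MEP library.

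Megakaryocyte and platelet genes, which fall from CMP to MEP in WT mice, fell less in KO mice. Of 36 such genes, 35 were lost in WT mice, where 38.5% of all tested genes were lost by the same rule (FDR under 0.1), with a median step of -3.95. In KO mice 33 were lost, where 37.9% of all genes were, with a median of -2.90. The difference passed as higher for 20 and as lower for 2 (median 1.38), and 23 had KO steps all above the WT steps. Over all tested genes 5.86% passed as higher, 7.91% as lower, and 13.2% had KO steps all above. Pf4, platelet factor 4 of the alpha granules, lies at chr5:90772435-90773383. It was read at 174, 128 and 141 CPM in WT CMP and 67.0, 74.5 and 77.7 CPM in KO CMP, and at 5.33, 2.05 and 1.49 CPM in WT MEP and 4.77, 9.88 and 7.73 CPM in KO MEP. The CMP groups did not overlap and the MEP groups did, through WT mouse 300. Its steps of -5.02, -5.93 and -6.53 in WT mice were all below the -3.80, -2.91 and -3.32 of KO mice, a difference of 2.36 ± 0.34 (SE; adjusted p = 0.00388). Itgb3, integrin beta 3, was lower in every KO CMP library (35.5, 40.6 and 40.6 CPM against 98.1, 67.9 and 84.9) and higher in every KO MEP library (2.88, 4.10 and 3.48 CPM against 2.64, 1.25 and 1.19), with a difference of 2.14 ± 0.21 (adjusted p = 0.000588). Its partner Itga2b, CD41, was read at 543, 336 and 424 CPM in WT CMP and 307, 269.3 and 303 CPM in KO CMP, and at 30.4, 11.5 and 14.5 CPM in WT MEP and 20.2, 24.8 and 29.5 CPM in KO MEP, where the ranges overlap. Its steps did not overlap and differed by 1.04 ± 0.21 (adjusted p = 0.0156).

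Vwf, von Willebrand factor, the carrier of clotting factor VIII, was read at 144, 108 and 103 CPM in WT CMP and 90.2, 99.7 and 77.9 CPM in KO CMP, and at 20.2, 17.8 and 18.4 CPM in WT MEP and 54.8, 46.1 and 61.4 CPM in KO MEP, with steps of -2.84, -2.59 and -2.49 in WT and -0.72, -1.11 and -0.34 in KO mice (difference 1.92 ± 0.18, adjusted p = 0.000508). Of its receptor on platelets, the subunit gene Gp9 had steps of -2.30, -1.57 and -2.06 in WT and -0.76, -0.52 and -0.57 in KO mice (difference 1.37 ± 0.18, adjusted p = 0.00243) and was higher in KO mice in both populations, while Gp1bb had steps of -4.70, -5.27 and -6.06 in WT and -4.16, -3.17 and -3.27 in KO mice (difference 1.76 ± 0.39, adjusted p = 0.0255). Clec1b, the receptor CLEC-2, rested on counts of 5, 2 and 7 in WT MEP and 1, 11 and 9 in KO MEP (difference 2.43 ± 0.67, adjusted p = 0.0562). Fli1, an ETS factor of megakaryocytes, stepped -4.19 in WT and -3.53 in KO mice and missed the threshold (difference 0.67 ± 0.22, adjusted p = 0.106). P2ry12, the platelet ADP receptor, went the other way: it was nearly absent in WT CMP (0.129, 0.118 and 0.154 CPM) and present in KO CMP (3.07, 1.95 and 4.995 CPM), and its loss was increased (difference -3.22 ± 0.91, adjusted p = 0.0629). Leaving out 1 mouse cost calls, with an adjusted p of up to 0.221 for Clec1b (without mouse 304) and 0.41 for P2ry12 (without mouse 309).

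Both sides took part in the megakaryocyte list. Across all genes, 10.5% were higher and 10.9% lower in KO CMP, and 13.2% higher and 14.6% lower in KO MEP. In KO CMP, 14 of the 36 genes were lower and 5 higher (median -0.42), and in KO MEP 14 were higher and 3 lower (median 0.69). The summed level was 2028 to 2749 CPM in WT CMP and 1689 to 1817 CPM in KO CMP, and 259.6 to 387 CPM in WT MEP against 377 to 436 CPM in KO MEP. The highest WT MEP value was above the lowest KO MEP value. Without WT mouse 300 the list still had 20 genes higher and 1 lower with a median of 1.25, and the count of higher genes was smallest, at 14, without KO mouse 304. In a fit without the mouse as a block, 12 were higher and none lower.

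**Figure D3:**
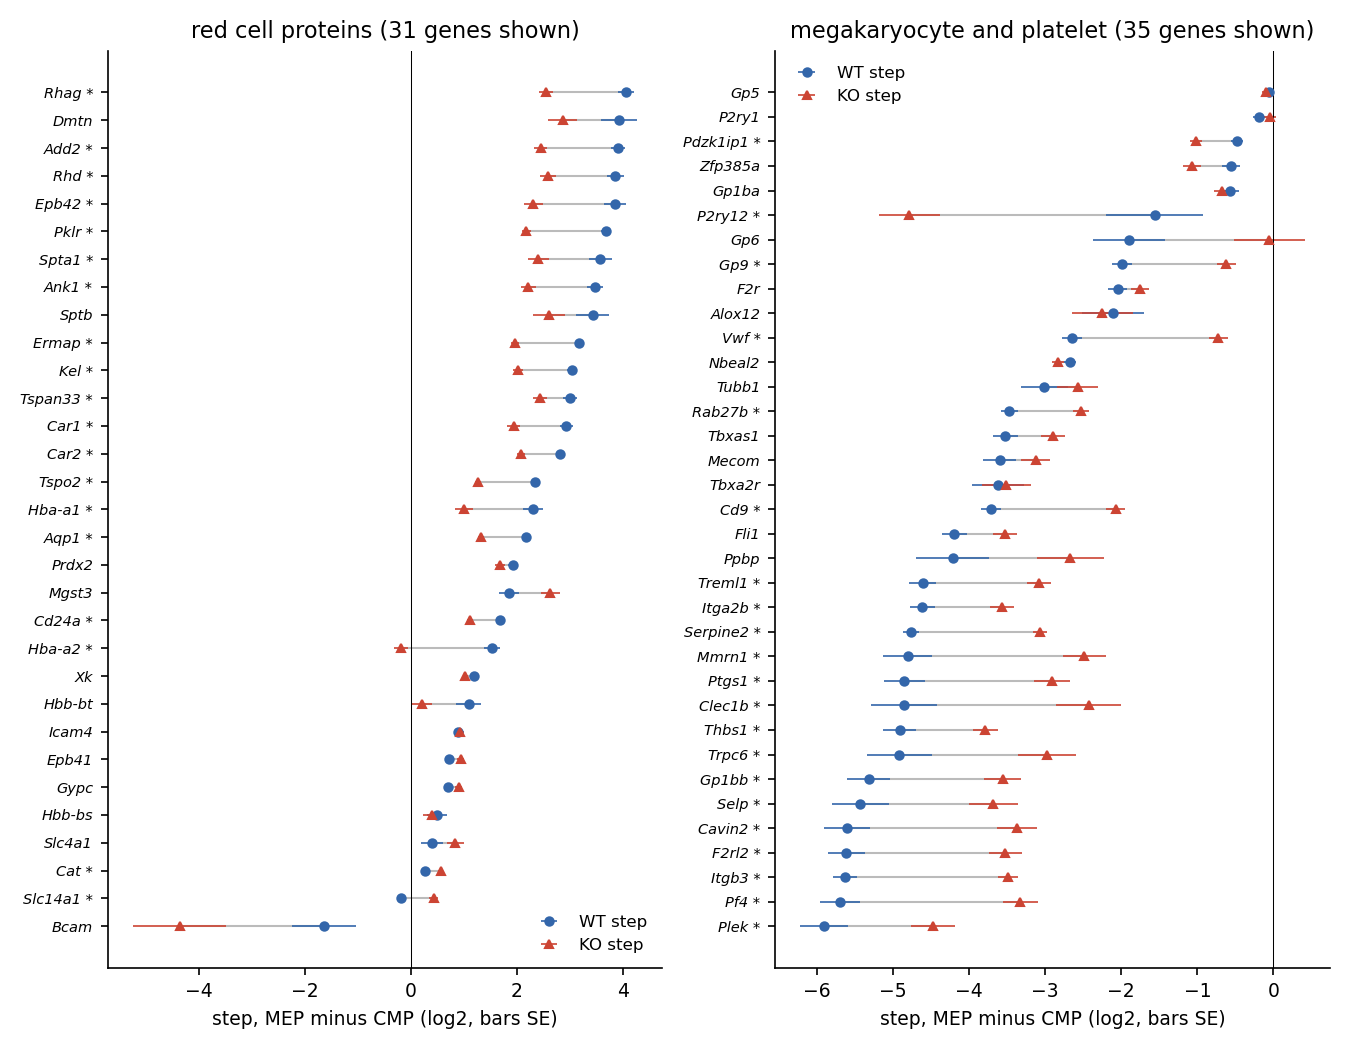
Fitted WT step (blue circles) and KO step (red triangles) of 31 red cell and 35 megakaryocyte genes, MEP minus CMP on the log2 scale with bars of 1 standard error, from 3 mice of each genotype. An asterisk marks a difference past an FDR of 0.1. Most red cell genes gain less in KO mice, such as Rhag (4.06 in WT, 2.55 in KO), and most megakaryocyte genes lose less, such as Vwf (-2.64 in WT, -0.72 in KO).

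Genes of the granulocyte and monocyte branch were lost in both genotypes. Of 38 tested, 37 were lost in WT and 36 in KO mice, where 38.5% and 37.9% of all genes were lost (FDR under 0.1). Their median steps were -4.82 and -4.69. The difference passed as higher for 5 and as lower for 2, against 5.86% higher and 7.91% lower over all genes. Mpo, myeloperoxidase, was lower in every KO CMP library (1248, 1962 and 1277 CPM against 3426, 3979 and 4256), and its step of -7.05 in WT and -6.24 in KO mice did not pass (adjusted p = 0.265). Cebpa, the factor that opens the granulocyte path, had steps of -5.01, -5.53 and -5.76 in WT and -5.93, -4.90 and -5.42 in KO mice, which overlap (difference 0.05 ± 0.27, adjusted p = 0.95). The lineage factor Irf8 (difference 0.40 ± 0.40, adjusted p = 0.627), the elastase gene Elane (difference 0.77 ± 0.44, adjusted p = 0.353) and the receptor Csf1r (difference -0.24 ± 0.52, adjusted p = 0.84) missed the threshold as well. Ctsg, cathepsin G, was lost less in KO mice, from 66.9, 91.0 and 65.7 CPM in KO CMP against 319, 349 and 377 CPM in WT CMP (difference 1.70 ± 0.40, adjusted p = 0.0302). The monocyte antigen Ly6c2 was lost less as well (difference 1.56 ± 0.40, adjusted p = 0.0429), although its single steps overlapped. Csf1, the ligand of CSF1R, was read at 0.950, 1.58 and 1.09 CPM in KO CMP against 8.38, 7.08 and 7.07 CPM in WT CMP and was lost less, with a difference of 1.53 ± 0.34 (adjusted p = 0.0245). Itgam, integrin alpha M, went the other way, at 77.1, 121 and 80.5 CPM in KO CMP against 24.1, 25.4 and 24.0 CPM in WT CMP and 1.47, 1.98 and 2.38 against 2.18, 0.850 and 1.94 CPM in MEP (difference -1.68 ± 0.35, adjusted p = 0.0175). Rxra, a retinoid receptor, gained 0.50 in WT and 1.42 in KO mice (difference 0.92 ± 0.16, adjusted p = 0.00877). The count of 5 higher rose to 15 without WT mouse 300 and fell to 2 without KO mouse 308 or WT mouse 309, and the count of 2 lower rose to 5 without WT mouse 305. None of 20 late neutrophil granule genes passed, nor did any of 20 macrophage and plasma cell genes, of which 2 were higher without WT mouse 300 and 4 lower without WT mouse 305. Calls that were lost with a mouse left out had an adjusted p of up to 0.114 for Ctsg (without mouse 309) and 0.185 for Ly6c2 (without mouse 308).

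Gata2 and Runx1, a pair of transcription factors of stem cells and early progenitors, changed in opposite ways. Gata2 lies at chr6:88193891-88207032 and normally falls as GATA1 rises. It was read at 395, 353 and 326 CPM in WT CMP and 123, 99.2 and 94.9 CPM in WT MEP, and at 211, 226 and 229 CPM in KO CMP and 25.7, 31.0 and 31.4 CPM in KO MEP. KO libraries were lower than WT libraries in both populations, and by more in the MEP. The steps of -1.69, -1.83 and -1.78 in WT mice were all above the -3.04, -2.86 and -2.87 of KO mice, an increased loss of -1.16 ± 0.07 (SE; adjusted p = 0.000111). Runx1 was read at 197, 164 and 192 CPM in WT CMP and 116, 123 and 127 CPM in KO CMP, without overlap, and at 56.9, 45.4 and 48.1 CPM in WT MEP and 56.8, 51.7 and 50.9 CPM in KO MEP, where the groups overlapped. Its loss was blunted, with steps of -1.79, -1.85 and -1.99 in WT and -1.02, -1.24 and -1.31 in KO mice and a difference of 0.68 ± 0.09 (adjusted p = 0.00257).

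Of 38 stem and early progenitor genes, 5 had a higher and 2 a lower difference, with a median difference of 0.17. The shares of all tested genes by this rule (FDR under 0.1) were 5.86% higher and 7.91% lower. Lmo4, a LIM-domain adaptor, had steps of -2.42 ± 0.07 in WT mice and -1.17 ± 0.06 in KO mice (difference 1.25 ± 0.09, adjusted p = 0.000156). Cd48, a surface antigen of committed progenitors, had steps of -2.07, -2.88 and -2.50 in WT and -1.57, -1.36 and -2.06 in KO mice (difference 0.81 ± 0.22, adjusted p = 0.0563). Flt3, a receptor of early multipotent progenitors, had steps of -3.91, -7.41 and -4.72 in WT and -6.09, -5.44 and -5.38 in KO mice (difference -0.71 ± 0.60, adjusted p = 0.557). Tcf15, a helix-loop-helix factor, was lost in WT and gained in KO mice, with steps of -0.40, -0.79 and -0.91 against 2.49, 1.93 and 2.90 (difference 3.22 ± 0.38, adjusted p = 0.00143), on counts of 42, 18 and 16 in WT MEP and 129, 124 and 206 in KO MEP. Mn1, a transcriptional cofactor, was read at 17.9, 10.6 and 23.1 CPM in KO CMP against 3.80, 3.63 and 4.16 CPM in WT CMP and was lost more (difference -1.70 ± 0.27, adjusted p = 0.00527). These counts turned with the mouse left out: 15 were higher and 3 lower without WT mouse 300, and 4 were higher and 7 lower without WT mouse 305, with a median of -0.08. Of 29 genes of basophils, mast cells and eosinophils, a list that also holds Gata2, 5 were lower and 4 higher, and 2 higher without KO mouse 301. Osm, the cytokine oncostatin M, was level across the step in WT mice (8.70, 8.51 and 7.99 CPM in CMP, 7.99, 9.60 and 6.99 CPM in MEP) and nearly lost in KO mice (1.68, 1.75 and 1.69 CPM in CMP, 0.166, 0.428 and 0.0571 CPM in MEP), an acquired loss of -2.98 ± 0.45 (adjusted p = 0.00432). Rab44, a large Rab GTPase of mast cells, had steps of -5.38 ± 0.15 in WT mice and -6.70 ± 0.17 in KO mice (difference -1.32 ± 0.22, adjusted p = 0.00716). Il1rl1, the receptor for interleukin-33, gained 1.09 in WT and 0.66 in KO mice (difference -0.43 ± 0.09, adjusted p = 0.0203). The call of Cd48 was lost with 1 mouse left out (adjusted p up to 0.182, without mouse 304).

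Of 25 early lymphoid genes tested, 7 had a lower step in KO mice and none a higher one. For all genes by this rule (FDR under 0.1) the shares were 7.91% lower and 5.86% higher. The median difference of the list was -1.10, and the median step went from -0.62 in WT to -2.35 in KO mice. The median of the 25 steps was -0.49, -1.40 and -0.68 in WT mice and -2.37, -1.97 and -2.11 in KO mice, without overlap. The genes were at low levels in MEP and varied between WT mice. Il7r, the interleukin-7 receptor, was read at 1.13, 2.13 and 1.89 CPM in WT CMP and 12.5, 8.73 and 24.3 CPM in KO CMP, without overlap, and at 0.862, 0.475 and 2.55 CPM in WT MEP and 0.435, 0.591 and 1.88 CPM in KO MEP, where the groups overlapped. It was an acquired loss of -3.50 ± 0.58 (SE; adjusted p = 0.00642). Rag1, a recombinase of lymphocyte receptor genes, had steps of 1.16, -0.51 and 2.61 in WT and -4.01, -2.25 and -3.54 in KO mice (difference -4.74 ± 0.76, adjusted p = 0.00572). Its WT counts went from 42, 39 and 52 in CMP to 81, 18 and 285 in MEP, so that mice 300 and 309 carried its WT gain. Blnk, an adaptor of the B cell receptor, had steps of 1.53, -0.04 and 1.24 in WT and -3.46, -2.35 and -2.65 in KO mice (difference -3.76 ± 0.48, adjusted p = 0.00202). For Dntt, terminal transferase, the steps of -1.09, -4.83 and -1.11 in WT and -5.76, -5.23 and -4.62 in KO mice overlapped through WT mouse 305 (difference -3.05 ± 0.90, adjusted p = 0.0725). Across all genes, 10.5% were higher and 10.9% lower in KO CMP, and 13.2% higher and 14.6% lower in KO MEP. In KO CMP 5 of the 25 genes were higher and 4 lower, and in KO MEP 15 were lower and none higher. Without WT mouse 300, 7 were lower and 4 higher. The call of Dntt was lost with 1 mouse left out (adjusted p up to 0.265, without mouse 309).

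**Figure D4:**
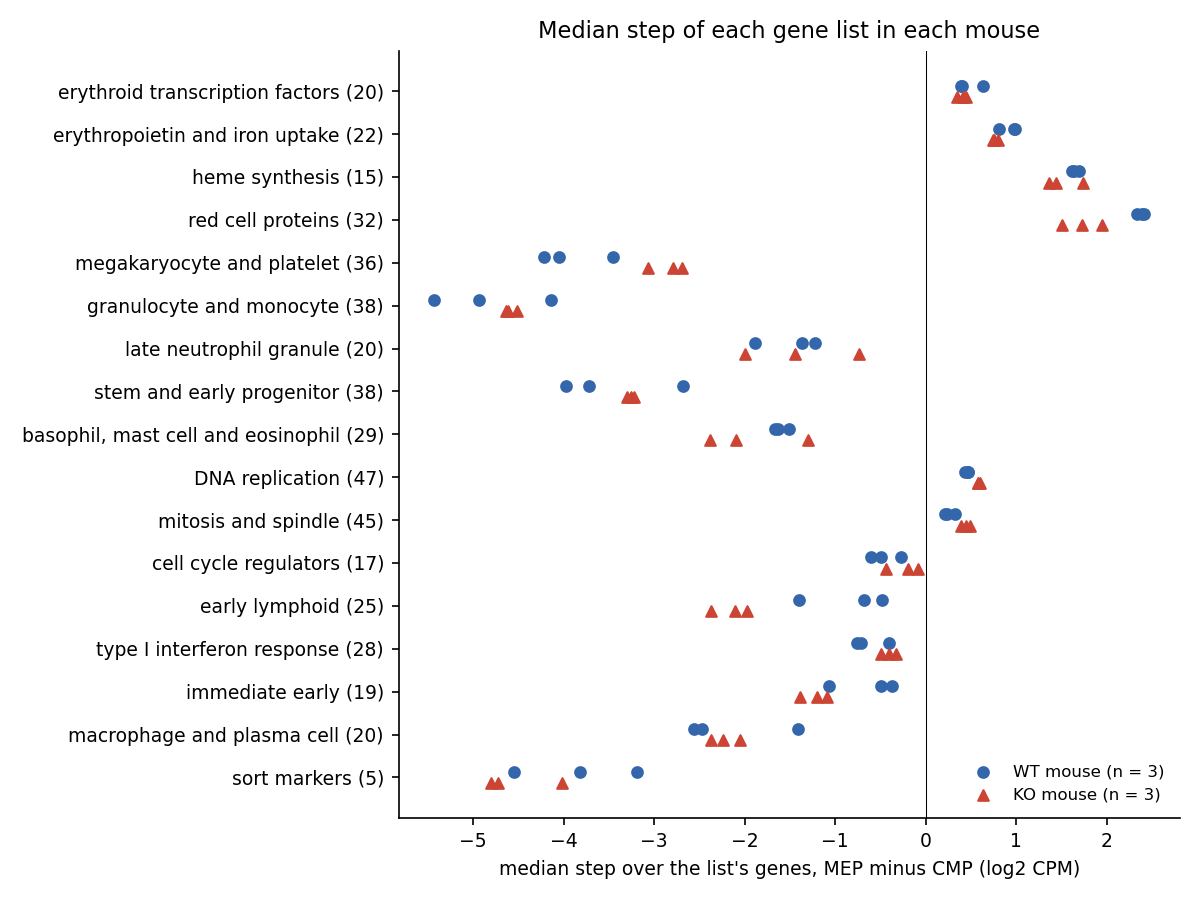
Median step over the genes of each of 17 lists (MEP minus CMP, log2 CPM, number of tested genes in brackets) in each WT mouse (blue circles) and each KO mouse (red triangles). The 3 KO medians lie apart from the 3 WT medians for the red cell, megakaryocyte, early lymphoid, DNA replication and mitosis lists and, by a narrow margin, for the erythropoietin and immediate early lists, and overlap with them for the other lists.

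Among the cell cycle genes named here, a pair of inhibitors of division, Cdkn1a and Btg2, differed the most. Of 45 genes of mitosis and the spindle, 19 had a higher and 1 a lower difference by an FDR of 0.1 alone. With the limit of 0.5, 2 were altered. Over all genes 5.86% were higher and 7.91% lower by FDR alone. The median step of the list was 0.23 in WT and 0.43 in KO mice, with a median difference of 0.22. The count of 19 ranged from 7 without WT mouse 309 to 23 without WT mouse 305. Cdk1, the mitotic kinase, differed by 0.24 ± 0.07 (adjusted p = 0.0689) and its partner Ccna2, cyclin A2, by 0.35 ± 0.08 (adjusted p = 0.0259). The kinesin Kif23 (difference 0.62 ± 0.10, adjusted p = 0.0074) and the phosphatase Cdc25b (difference 0.92 ± 0.09, adjusted p = 0.000755) were blunted losses. Among 47 genes of DNA replication, 8 were higher and 3 lower by FDR alone, and 1 was altered with the limit of 0.5. The 8 and 3 fell to 2 and 1 without KO mouse 301 or without WT mouse 309. Ccne1, cyclin E1, gained less in KO mice (difference -0.53 ± 0.16, adjusted p = 0.0694). Of 17 cell cycle regulators, 6 were higher and 1 lower by FDR alone, and 4 were altered. Cdkn1a, the CDK inhibitor p21, was read at 10.7, 12.6 and 13.7 CPM in WT CMP and 28.8, 25.4 and 38.4 CPM in KO CMP, and at 1.26, 1.73 and 1.82 CPM in WT MEP and 14.2, 14.7 and 13.1 CPM in KO MEP. KO libraries were above WT libraries in both populations and by more in MEP. Its steps of -3.05, -2.84 and -2.89 in WT and -1.02, -0.79 and -1.55 in KO mice differed by 1.83 ± 0.21 (SE; adjusted p = 0.00125). Btg2, an antiproliferative factor, had steps of -3.15, -2.46 and -3.48 in WT and -1.82, -0.73 and -1.46 in KO mice (difference 1.70 ± 0.32, adjusted p = 0.0118). Ccnd1, cyclin D1, was lost more (difference -0.68 ± 0.16, adjusted p = 0.0279) and Ccnd3, cyclin D3, was lost in WT mice and level in KO mice (difference 0.49 ± 0.08, adjusted p = 0.00787). With 1 mouse left out, calls were lost with an adjusted p of up to 0.243 for Cdk1 (without mouse 301), 0.113 for Ccna2 (without mouse 301), 0.21 for Ccne1 (without mouse 301) and 0.117 for Ccnd1 (without mouse 309).

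Of 19 immediate early genes, 6 were lower and 3 higher, where 7.91% of all genes were lower and 5.86% higher (FDR under 0.1). Egr1, a zinc finger factor induced by growth signals, had steps of 0.86, 0.14 and 0.54 in WT and -1.14, -0.49 and -0.70 in KO mice (difference -1.29 ± 0.23, adjusted p = 0.0095), and Junb, a subunit of AP-1, had steps of 0.18, -0.14 and -0.17 in WT and -1.09, -1.12 and -1.02 in KO mice (difference -1.04 ± 0.13, adjusted p = 0.00165). Dusp1, a phosphatase of MAP kinases, was lost in WT mice and level in KO mice (difference 1.14 ± 0.35, adjusted p = 0.0849). The count of 3 fell to 0 without KO mouse 304 or WT mouse 309. Of 28 genes of the type I interferon response, the pathway that poly(I:C) acts through, 18 were higher in KO CMP and 17 in KO MEP. For all genes the shares higher and lower were 10.5% and 10.9% in KO CMP, and 13.2% and 14.6% in KO MEP. None of the 28 was lower in either population. The difference of the steps passed for 7, with 4 lower and 3 higher, a balance that was not stable: without WT mouse 305, 3 were lower and 7 higher, and the 4 lower fell to 2 without mouse 300, 301, 308 or 309. Oasl1 gained less in KO mice (difference -1.09 ± 0.10, adjusted p = 0.000447) and Oasl2, of the same family, was lost less (difference 0.97 ± 0.19, adjusted p = 0.0136). Mx1 itself was lost more (difference -1.02 ± 0.32, adjusted p = 0.0924) and Ifit1 less (difference 0.69 ± 0.22, adjusted p = 0.0905). Leaving out 1 mouse cost calls, with an adjusted p of up to 0.258 for Dusp1 (without mouse 309), 0.248 for Mx1 (without mouse 301) and 0.261 for Ifit1 (without mouse 304).

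Outside the lists, genes among the 4 largest differences of each class include the following. That ranking took only protein-coding genes off the Y chromosome whose KO steps lay apart from the WT steps. Other genes of a class could differ more, and the lack of overlap was a condition of the ranking. Sh2d4a, an SH2-domain protein, rose from 6.98, 6.14 and 7.31 CPM to 55.9, 78.0 and 69.6 CPM in WT mice and stayed at 2.61, 1.49 and 4.09 CPM and 2.59, 2.06 and 4.28 CPM in KO mice, a difference of -3.15 ± 0.20 (SE; adjusted p = 0.000114). Phlda2, an imprinted growth regulator, rose from 0.917, 1.14 and 1.06 to 7.05, 5.10 and 5.60 CPM in WT mice and stayed between 0.0622 and 0.222 CPM in all 6 KO libraries (difference -2.58 ± 0.57, adjusted p = 0.0242). Lgals7, galectin-7, had counts of 1, 6 and 7 in WT CMP, 67, 50 and 48 in WT MEP and 9, 0 and 5 in KO MEP (difference -4.36 ± 1.17, adjusted p = 0.0511). Mroh3 was at 0 counts in all 3 WT CMP libraries and at 6, 5 and 10 counts in WT MEP, against 30, 39 and 35 in KO CMP and 112, 92 and 104 in KO MEP, so the size of its fitted difference depends on the prior count and is no bound. Increased gains were few. Rab3il1, an exchange factor for Rab GTPases, rose to 69.1, 73.1 and 73.6 CPM in KO MEP against 8.93, 20.6 and 8.46 CPM in WT MEP (difference 1.89 ± 0.33, adjusted p = 0.00803), and Slc6a9, a glycine transporter, to 13.9, 22.2 and 12.7 against 2.93, 3.33 and 2.50 CPM (difference 1.49 ± 0.26, adjusted p = 0.00836). The phosphatase Acp5 (difference 1.06 ± 0.30, adjusted p = 0.0646) and the stress gene Gadd45g (difference 0.98 ± 0.20, adjusted p = 0.0163) were increased gains as well. Calls that were lost with a mouse left out had an adjusted p of up to 0.128 for Lgals7 (without mouse 308), 0.135 for Mroh3 (without mouse 309) and 0.204 for Acp5 (without mouse 309).

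Among blunted losses, Gpc1, the cell-surface proteoglycan glypican-1, fell from 36.6, 32.5 and 59.5 CPM to 1.48, 0.475 and 0.707 CPM in WT mice and from 4.79, 2.82 and 3.60 CPM to 2.24, 1.14 and 1.96 CPM in KO mice. Every KO CMP library was below every WT CMP library, the MEP libraries overlapped through WT mouse 300, and the difference was 4.46 ± 0.40 (SE; adjusted p = 0.000369). Ccm2l had counts of 12, 0 and 4 in WT MEP and 19, 8 and 8 in KO MEP (difference 3.70 ± 0.83, adjusted p = 0.026). The transporter gene Abca9 had 0, 0 and 2 and 4, 3 and 0 (difference 4.74 ± 1.18, adjusted p = 0.039), so both differences rest on few MEP counts. Atoh8, a helix-loop-helix factor, had 0 counts in all 3 WT MEP libraries and 6, 20 and 10 in KO MEP, and its fitted difference is no bound either. Reversed gains included Rem2, a small GTPase, with steps of 0.73, 0.54 and 0.81 against -2.99, -3.75 and -2.40 (difference -4.06 ± 0.49, adjusted p = 0.0016), and Efr3b, with steps of 0.95, 0.38 and 0.41 against -2.22, -2.78 and -2.31 (difference -3.13 ± 0.27, adjusted p = 0.000344). Reversed losses included Fn3k, a kinase that repairs glycated proteins in red cells (0.345, 0.400 and 0.151 CPM in WT MEP, 5.72, 8.84 and 6.80 CPM in KO MEP, difference 2.60 ± 0.39, adjusted p = 0.00446), the glycosyltransferase B3gnt3 (difference 2.71 ± 0.36, adjusted p = 0.00244) and the predicted gene Gm10800, whose reads may be shared with repeats (difference 3.71 ± 0.85, adjusted p = 0.0282). With 1 mouse left out, calls were lost with an adjusted p of up to 0.122 for Ccm2l (without mouse 301), 0.214 for Abca9 (without mouse 301), 0.15 for Atoh8 (without mouse 300) and 0.102 for Gm10800 (without mouse 309).

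Of the increased losses, Gimap7, a GTPase of lymphoid cells, was read at 1.48, 1.51 and 1.47 CPM in WT CMP and 5.34, 3.79 and 8.45 CPM in KO CMP, and at 0.364, 0.175 and 0.429 CPM in WT MEP and 0.0207, 0.0611 and 0.209 CPM in KO MEP (difference -3.71 ± 0.56, adjusted p = 0.00449). Nsg2, a membrane protein gene, was read at 3.09, 1.59 and 6.27 CPM in KO CMP against 0.675, 0.807 and 0.638 CPM in WT CMP (difference -3.71 ± 0.73, adjusted p = 0.0144). For Cd276, a surface protein of the B7 family, 2.99, 0.758 and 4.11 CPM in KO CMP overlapped with 1.35, 0.740 and 0.902 CPM in WT CMP (difference -2.86 ± 0.46, adjusted p = 0.00588). Of the acquired gains, Cnn3, the actin-binding calponin 3, was level in WT mice (37.1, 55.5 and 67.1 CPM in CMP, 44.4, 54.9 and 44.8 CPM in MEP) and rose from 37.9, 39.0 and 41.9 to 158, 162 and 164 CPM in KO mice (difference 2.14 ± 0.18, adjusted p = 0.000274). Slc22a4, an organic cation transporter, rose to 32.9, 41.8 and 36.4 CPM in KO MEP against 5.52, 7.93 and 6.51 CPM in WT MEP (difference 2.09 ± 0.21, adjusted p = 0.000759). The formin Fhdc1 (difference 2.30 ± 0.58, adjusted p = 0.0413) and Gdf9 (difference 2.77 ± 0.63, adjusted p = 0.028) had larger differences on fewer counts. Of the acquired losses, St8sia1, the GD3 synthase, started at 21.2, 6.16 and 29.9 CPM in KO CMP against 1.38, 1.01 and 2.33 CPM in WT CMP (difference -3.24 ± 0.44, adjusted p = 0.00279), Bfsp2 was lost in KO MEP (0.207, 0.285 and 0.267 CPM against 1.69, 0.700 and 2.04 CPM in WT MEP, difference -3.51 ± 0.51, adjusted p = 0.00397), and the predicted gene Gm10197 rested on counts of 7, 13 and 20 in WT MEP and 0, 3 and 0 in KO MEP (difference -3.69 ± 1.02, adjusted p = 0.0573). Leaving out 1 mouse cost calls, with an adjusted p of up to 0.142 for Fhdc1 (without mouse 309), 0.115 for Gdf9 (without mouse 309) and 0.176 for Gm10197 (without mouse 308).

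Each class could arise from the CMP, the MEP or both, and the knockout effect in each population was read for the same genes in a fit of the 4 groups. In that fit 6.35% of genes above 1 TPM were higher and 5.89% lower in KO CMP, and 6.54% were higher and 8.04% lower in KO MEP, with FDR under 0.1 and over 0.5. Of the 293 blunted gains, 93 were higher in KO CMP only, 88 lower in KO MEP only and 78 were called in both populations, 54 of them as higher in both. Of the 426 blunted losses, 119 were lower in KO CMP only, 163 higher in KO MEP only and 64 were called in both, 27 of them in opposite directions. The increased losses lay mostly on the MEP side, with 203 of 368 lower in KO MEP only and 74 higher in KO CMP only. The acquired losses were lower in KO MEP only for 69 of 136 and higher in KO CMP only for 26, and the acquired gains were higher in KO MEP only for 45 of 68. These counts divide differences that the classes already fixed, and they are no test of the side. In the GMP libraries of the same mice, not used above, 6.94% of 13522 genes were higher and 10.5% lower in KO mice. Of the blunted gains tested there, 20.2% were higher and 15.8% lower. Of the blunted losses, 11.3% were higher and 31.4% lower, and of the increased losses 22.5% were higher and 20.8% lower. The shares in both directions were thus above those of all genes in these 3 classes.

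**Figure D5:**
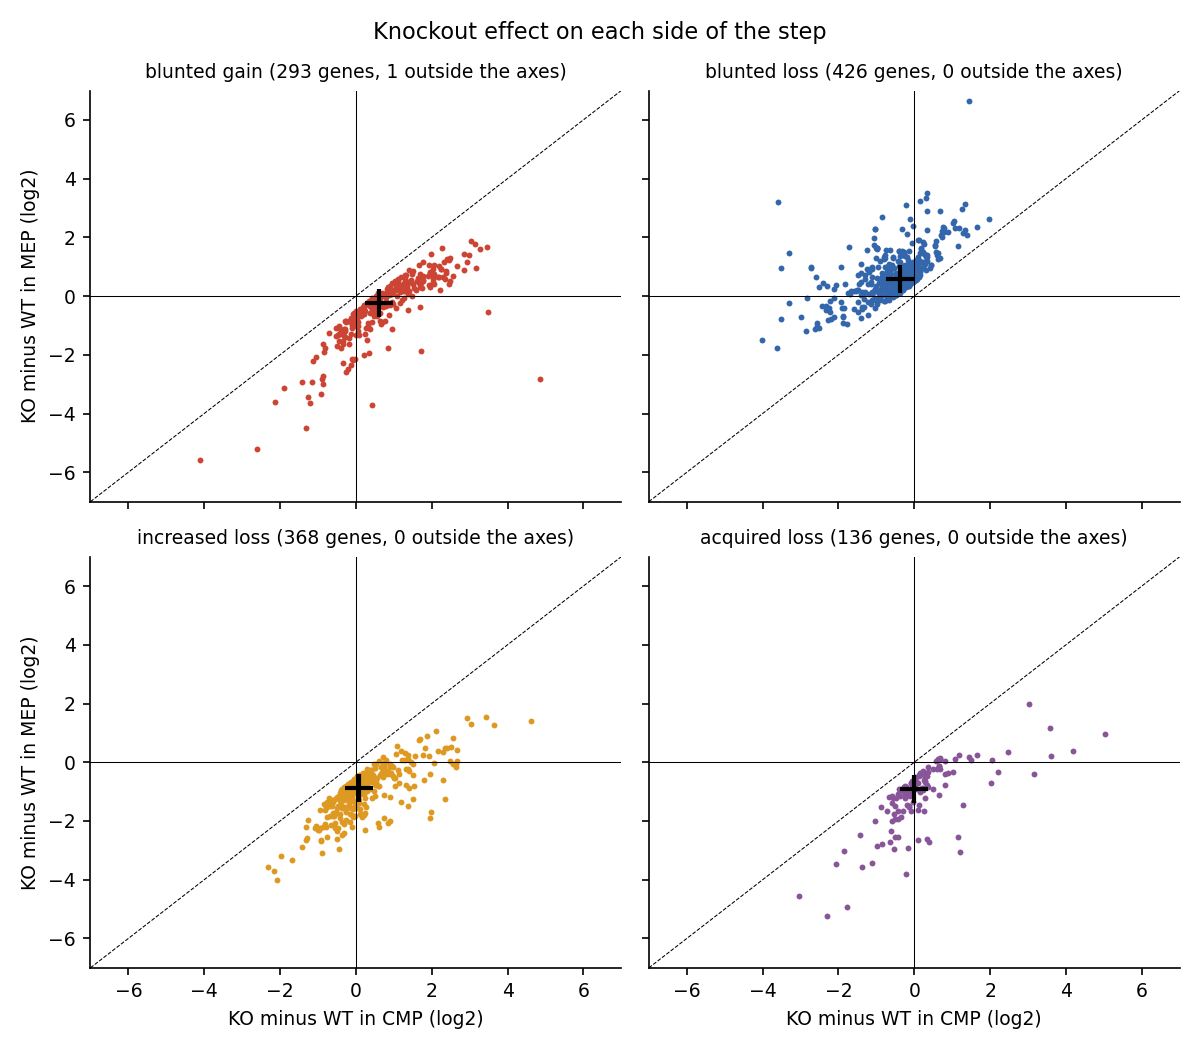
Knockout effect in MEP against that in CMP (KO minus WT, log2) for the genes of 4 classes, each point a gene, with a cross at the class medians and a dashed line at equal effects. Blunted gains centre at 0.61 in CMP and -0.25 in MEP, blunted losses at -0.38 and 0.58, and increased losses at 0.07 and -0.87.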

How the data were processed

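Bone marrow progenitors of the 6 mice were profiled by poly(A) RNA sequencing (TruSeq, HiSeq 4000, paired 100 bp reads). The authors assigned the reads to Ensembl 84 mouse transcripts (mm10) with kallisto 0.43.1 and deposited, per transcript, an estimated count, a TPM value and an effective length. The estimated counts were here summed per gene (99.2% of 115088 transcripts matched a gene) and rounded to whole numbers; 0.251% to 0.297% of counts lay on no annotated gene and were left out. The deposited TPM values served only for the 1 TPM limit. Depth was 41497753 to 60789922 counts per library, and intervals reflect the spread between mice.

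The fit used edgeR 4.0.16 in R 4.3.3 (filterByExpr, TMM, quasi-likelihood test, Benjamini-Hochberg adjustment over 17859 genes), with the mouse as a block, the population, and the population by genotype term. Each mouse gave both populations per the labels. The check of this pairing gave correlations of the deviations from group means of 0.19 to 0.49 within a mouse and -0.37 to 0.11 between mice. Knockout effects within CMP and within MEP came from a fit of the 4 groups without the block. Errors, given as SE, are the absolute log2 value divided by the square root of the test's F statistic. They are approximate for genes at low counts. Single-mouse steps used a prior count of 2. DESeq2 1.42.0, other scalings and filters, a length offset, no block, other pairings, 18 libraries and leaving out each mouse were tried as alternatives. The fit was tested on simulated data without a mouse effect, with calls counted by FDR alone. The share of false calls was above the nominal FDR, most differences of 1 (log2) were recovered and most of 0.5 were missed.

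Genes were named by a rule: Arid1a, the sort markers, genes the study followed by RT-PCR, and key members of 17 lists (464 genes, of which 118 were key). The altered members of each list with the largest differences were added. So were the 4 largest differences of each class among protein-coding genes off the Y chromosome whose KO and WT steps did not overlap. Some key members are given only in the counts, the single values of some genes are not reported here, 13 list genes were below the filter and were not tested, and members and lists were chosen with earlier results of these data known. Promoter windows came from RefSeq (GRCm38.p6). GMP and stem cell libraries were not used in the comparison.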

Additional observations from a re-analysis of the deposited data

Results flagged for a closer look

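For 80 of the 105 genes named in the report, the change from CMP to MEP differed between KO and WT mice by the test of the difference itself. Many of them were named for the size of that difference, so the count of 80 does not measure how common such a change was. Among all genes above 1 TPM, 1405 of 14033 passed, and 33 of the 118 key list members did. All the values that follow are that difference (KO step minus WT step, log2, 3 mice of each genotype), and each passed an FDR of 0.1 with over 0.5 (edgeR) with all mice; the calls lost with a mouse left out are given in the report. For the blunted gains it was -4.36 for Lgals7, -4.29 for Mroh3, -3.15 for Sh2d4a, -2.58 for Phlda2, -1.72 for Hba-a2, -1.54 for Epb42, -1.51 for Rhag, -1.30 for Hba-a1, -1.28 for Rhd, -1.20 for Ermap, -1.09 for Oasl1, -0.99 for Car1, -0.82 for Epor, -0.81 for Blvrb, -0.78 for Klf1, -0.73 for Car2, -0.67 for Cpox, -0.64 for Tfr2, -0.56 for Tfrc and -0.53 for Ccne1. The value for Mroh3 rests on 0 counts in every WT CMP library and is no bound. For the increased gains it was 0.92 for Rxra, 0.98 for Gadd45g, 1.06 for Acp5, 1.49 for Slc6a9 and 1.89 for Rab3il1, and for the reversed gains -4.74 for Rag1, -4.06 for Rem2, -3.76 for Blnk, -3.13 for Efr3b and -1.29 for Egr1.

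For the blunted losses the difference was 0.62 for Kif23, 0.68 for Runx1, 0.69 for Ifit1, 0.81 for Cd48, 0.92 for Cdc25b, 0.97 for Oasl2, 1.04 for Itga2b, 1.14 for Dusp1, 1.25 for Lmo4, 1.37 for Gp9, 1.53 for Csf1, 1.56 for Ly6c2, 1.70 for Ctsg, 1.70 for Btg2, 1.76 for Gp1bb, 1.83 for Cdkn1a, 1.92 for Vwf, 2.14 for Itgb3, 2.36 for Pf4, 2.43 for Clec1b, 3.70 for Ccm2l, 4.46 for Gpc1, 4.74 for Abca9 and 5.19 for Atoh8. The value for Atoh8 rests on 0 counts in every WT MEP library and is no bound. For the increased losses it was -3.71 for Gimap7, -3.71 for Nsg2, -3.22 for P2ry12, -3.05 for Dntt, -2.86 for Cd276, -1.70 for Mn1, -1.68 for Itgam, -1.32 for Rab44, -1.16 for Gata2, -1.02 for Mx1 and -0.68 for Ccnd1, and for the reversed losses 2.60 for Fn3k, 2.71 for B3gnt3, 3.22 for Tcf15 and 3.71 for Gm10800. For the acquired gains it was 2.09 for Slc22a4, 2.14 for Cnn3, 2.30 for Fhdc1 and 2.77 for Gdf9, and for the acquired losses -3.69 for Gm10197, -3.51 for Bfsp2, -3.50 for Il7r, -3.24 for St8sia1, -2.98 for Osm and -1.04 for Junb. Slc25a37, an altered gene in no class, had a difference of 0.67.

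The GMP libraries of the same 6 mice are outside the comparison of CMP and MEP, and their knockout effect was fitted apart after the results above were seen. Of all 13522 genes above 1 TPM, 6.94% were higher and 10.5% lower in KO GMP. Of the blunted losses tested in GMP, 31.4% were lower and 11.3% higher. Of the blunted gains, 20.2% were higher and 15.8% lower, and of the increased losses 22.5% were higher and 20.8% lower. Because the same mice gave all populations, these shares are a description and no independent test. No group holds more than 3 libraries, so single libraries were not screened for outliers.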

How the results depend on the processing

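The difference of the steps was called for 1405 genes, for 1414 with median-of-ratios size factors, 1619 without a filter on low counts, 1365 with DESeq2, 1278 with an offset for transcript length, 1450 with WT and KO mice also paired by the columns of the study's table, and 1471 with all 18 progenitor libraries. Without the mouse as a replicate block 1197 were called, 1142 of them among the 1405. In that fit there were 7 lower and 2 higher erythroid transcription factors, 5 lower and 2 higher genes of erythropoietin and iron uptake, 1 lower gene of heme synthesis, 1 lower granulocyte and monocyte gene, 2 higher basophil, mast cell and eosinophil genes, 11 higher mitosis genes, 3 higher and 1 lower DNA replication genes, 3 higher and 0 lower cell cycle regulators, 1 higher and 0 lower interferon genes, and 1 higher macrophage and plasma cell gene. Granulocyte and monocyte genes counted 11 higher and 4 lower without the filter, 8 and 4 with DESeq2, and 11 higher with the column pairs, and replication genes 4 higher without the filter. With each mouse left out the count of all altered genes ranged from 1002 (without WT mouse 309) to 1655 (without WT mouse 305). Reversed losses numbered 22 without the filter and 6 with DESeq2, and 13 to 23 with a mouse left out, while increased gains ranged from 12 to 26 and increased losses from 231 to 530. With classes from the mean of both steps there were 60 increased gains, 32 acquired gains and 39 acquired losses. With a minimum of 1 on the log2 scale there were 141 blunted, 2 increased and 4 reversed gains, 229 blunted, 155 increased and 6 reversed losses, and 30 acquired gains. These last counts are smaller because fewer genes can pass; the cause of the other shifts was not tested.

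Of the 105 named genes, 89 passed an FDR of 0.1, and none of these changed sign in any alternative run. The call was lost for 0 of the 89 with median-of-ratios size factors, 2 without the filter, 4 with DESeq2, 2 of those having no adjusted p there, 12 with the length offset, 22 without the block, 2 with the column pairs, 7 with 18 libraries, and 4 (without WT mouse 305) to 24 (without WT mouse 309) with a mouse left out. Among genes that did not pass, the difference was -0.0053 without the filter and -0.010 with the length offset for Zfpm1, 0.35 for Alas2 and -0.021 for Fcgr2b with the length offset. With a mouse left out it ranged from -0.73 to 0.46 for Csf1r, from -0.43 to 0.26 for Alas2, from -0.27 to 0.30 for Cebpa, from -0.26 to 1.42 for Cd34, from -0.45 to 0.23 for Hbb-bs, from -0.034 to 0.054 for Zfpm1, from -0.82 to 0.21 for Ly6a and from -0.034 to 0.13 for Kit. With 3 mice of each genotype and 4 residual degrees of freedom, differences under 0.5 passed only where mice varied little, the median standard error being 0.12 above 1 TPM.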

Other observations

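The following genes were picked after their values were seen, and are given as values. Of 10 genes of MHC class II, the molecules that present antigen to T cells, 4 were lost more in KO mice: a pair of genes of H2-DM, which helps load peptides, and both chains of H2-O, which inhibits H2-DM. H2-DMa, which removes the invariant chain peptide, was read at 93.1, 94.6 and 94.2 CPM in WT CMP and 92.2, 93.2 and 116 CPM in KO CMP, and at 24.8, 16.6 and 20.6 CPM in WT MEP and 5.53, 5.89 and 6.72 CPM in KO MEP. Its levels overlapped in CMP and lay apart in MEP, with a difference of the steps of -1.85 ± 0.14 (SE; adjusted p = 0.000203). H2-Oa, part of the inhibitor of H2-DM, had steps of -1.54, -2.40 and -1.78 in WT and -4.44, -4.99 and -4.16 in KO mice (difference -2.65 ± 0.28, adjusted p = 0.000819). H2-DMb1 (difference -0.82 ± 0.20, adjusted p = 0.0372) and H2-Ob (difference -1.51 ± 0.40, adjusted p = 0.0472) passed as well. The steps of H2-Ob overlapped, at -2.82, -4.76 and -3.15 in WT and -5.37, -4.66 and -4.71 in KO mice. Unlike H2-DMa, H2-Ob had a KO minus WT value of 1.39 in CMP and -0.22 in MEP. The other H2-DM beta chain, H2-DMb2 (difference -1.71 ± 0.83, adjusted p = 0.269), and Ciita, the regulator of class II transcription (difference -0.79 ± 0.96, adjusted p = 0.701), did not pass. For the class II chains H2-Aa (difference 1.54 ± 0.56, adjusted p = 0.137), H2-Eb1 (difference 1.66 ± 0.55, adjusted p = 0.107) and H2-Ab1 (difference 0.28 ± 0.17, adjusted p = 0.371) and the invariant chain Cd74 (difference 0.75 ± 0.54, adjusted p = 0.477) the difference was above 0 and did not pass. None of the 10 passed as higher, and their median difference was -0.81, while 7.91% of all genes were lower and 5.86% higher (edgeR).

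Of 25 cytokine receptor genes, 10 were lower and 2 higher, where 7.91% of all genes were lower and 5.86% higher. Their median difference was -0.28. Il18r1, the interleukin-18 receptor, stepped -1.82, -1.51 and -1.04 in WT and -4.32, -3.75 and -4.26 in KO mice (difference -2.67 ± 0.26, adjusted p = 0.000561), and Il1r1, the interleukin-1 receptor, -2.34, -1.82 and -2.66 and -4.41, -4.19 and -4.40 (difference -2.08 ± 0.20, adjusted p = 0.000558). Neither pair of steps overlapped. Il12rb1 (difference -1.96 ± 0.39, adjusted p = 0.0144), Il18rap (difference -1.35 ± 0.15, adjusted p = 0.00115) and Il17ra (difference -0.73 ± 0.11, adjusted p = 0.00446) had lower steps too. The side differed between these genes. KO minus WT was 2.65 in CMP and -0.05 in MEP for Il18r1, and 1.57 and 0.20 for Il18rap. It was 1.31 in CMP and -0.77 in MEP for Il1r1, 0.24 and -1.72 for Il12rb1, and 0.20 and -0.54 for Il17ra. The higher ones were Il6st, the shared signalling chain gp130 (difference 1.59 ± 0.30, adjusted p = 0.0126), and Il11ra1 (difference 0.64 ± 0.11, adjusted p = 0.00912), which signals through it.

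Of the named genes, Gata2 was lower in KO GMP by -1.70 (log2), Runx1 by -0.64 and Pf4 by -1.18, and Cdkn1a was higher by 0.82. Klf1, at 0.01 in GMP (adjusted p = 0.978), and Epor, at 0.36 (adjusted p = 0.279), did not pass there.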
